A study of Mus musculus with 4 samples.

Results

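The glycolysis and hypoxia response genes described here are 42 mouse genes listed by name for their role. No threshold on measured values enters the list, but it was drawn up with earlier results of these data known. They are 15 enzymes of glycolysis, the regulator Pfkfb3, 2 lactate dehydrogenase subunits, 4 transporters of glucose or lactate, 3 genes of the pyruvate dehydrogenase complex and its kinases, 4 genes of the oxygen-sensing system, 10 targets of the hypoxia response and 3 genes of glycogen metabolism. All 42 were on the array and all 42 were tested, among 24565 features in all, of which 17017 carry a gene symbol. Their RNA came from the ipsilateral cortex of C57BL/6 mice, 8 weeks of age, taken 24 h after permanent occlusion of the left middle cerebral artery (pMCAO), which was electrocoagulated and cut. One group is labelled Ndrg2KO, a knockout of Ndrg2 (an N-myc downstream-regulated gene expressed mainly by astrocytes in brain), and the other wild type. Both groups had the occlusion, so the comparison is between genotypes after stroke and holds no uninjured cortex. The knockout allele is not given in the sources used here. The labels number 4 samples of each genotype without saying that each is 1 animal, so the p-values measure only the spread between these samples.

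Each of the 4 arrays held 1 knockout-labelled sample in the green dye Cy3 and 1 wild-type sample in the red dye Cy5, and the arrays lay on 1 slide. No array had the dyes exchanged, so that a probe's own dye effect and a difference between genotypes cannot be told apart. Values are log2 ratios of knockout-labelled over wild type on each array, and "passed" means an adjusted p under 0.05 in a limma fit over all 24565 features. The Ndrg2 probe read -0.22, -0.22, -0.18 and -0.11 on arrays 1 to 4, a mean of -0.18 ± 0.05 (SD, n = 4), with an adjusted p of 0.0248. Where this probe lies relative to the deleted part of the gene was not analysed here, so it does not check the genotype, and the samples are called knockout-labelled. Between 73.6% and 74.9% of spots were well above background in the knockout-labelled channel and between 76.7% and 79.0% in the wild-type channel, and 0 spots were saturated. All 8 cortical neuron markers were well above background in both channels on at least 1 array, as were all 8 striatal neuron markers. Only probes that had passed the background filter were counted, so this result was largely fixed in advance. Across all features, arrays 1 and 2 correlated at 0.73 and arrays 3 and 4 at 0.63, and the other pairs between 0.41 and 0.48. Since the samples are bulk tissue, fewer cells of a type and less RNA per cell cannot be told apart.

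Glycolysis splits glucose into pyruvate in the cytosol, and lactate dehydrogenase turns pyruvate into lactate when mitochondria lack oxygen. When oxygen falls, prolyl hydroxylases stop marking the alpha subunits of the hypoxia-inducible factors for degradation, and the stabilised factors switch on genes of glycolysis, glucose transport and survival through the hypoxia response element. In brain, astrocytes are the main site of glycogen storage and a source of lactate for neurons, and cortex that has lost its arterial supply meets lack of oxygen and of glucose together.

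Of the 42 genes, 9 were lower and 5 were higher in the knockout-labelled cortex, and 28 did not pass. The 9 lower genes were 21.4% of the genes and the 5 higher ones 11.9%, beside 12.7% lower and 8.63% higher among all features, of which 21.3% passed in either direction. The lower genes were the glycolytic enzymes Hk1, Eno1, Gapdh, Aldoc, Aldoa, Gpi1 and Pgk1, the lactate dehydrogenase subunit Ldha, and Epas1, which encodes hypoxia-inducible factor 2 alpha. The higher genes were the prolyl hydroxylase gene Egln1, the hypoxia targets Ankrd37 and Bnip3, and the glycolytic enzymes Pfkp and Tpi1. Changes were small: the largest was the 1.41-fold lower signal of Hk1, and 0 of the 42 genes reached 1.5-fold. All 14 genes that passed had the same sign on all 4 arrays, and so had 11 of the 28 that did not pass. The median over the 42 genes was -0.08, beside -0.02 over all features, with 19 genes above 0 and 23 below. Without replicate 1 the counts were 3 higher and 4 lower, and without replicate 2 they were 2 higher and 5 lower. With the 2 channels of an array not paired, 5 genes were higher and 5 lower.

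**Figure D1:**
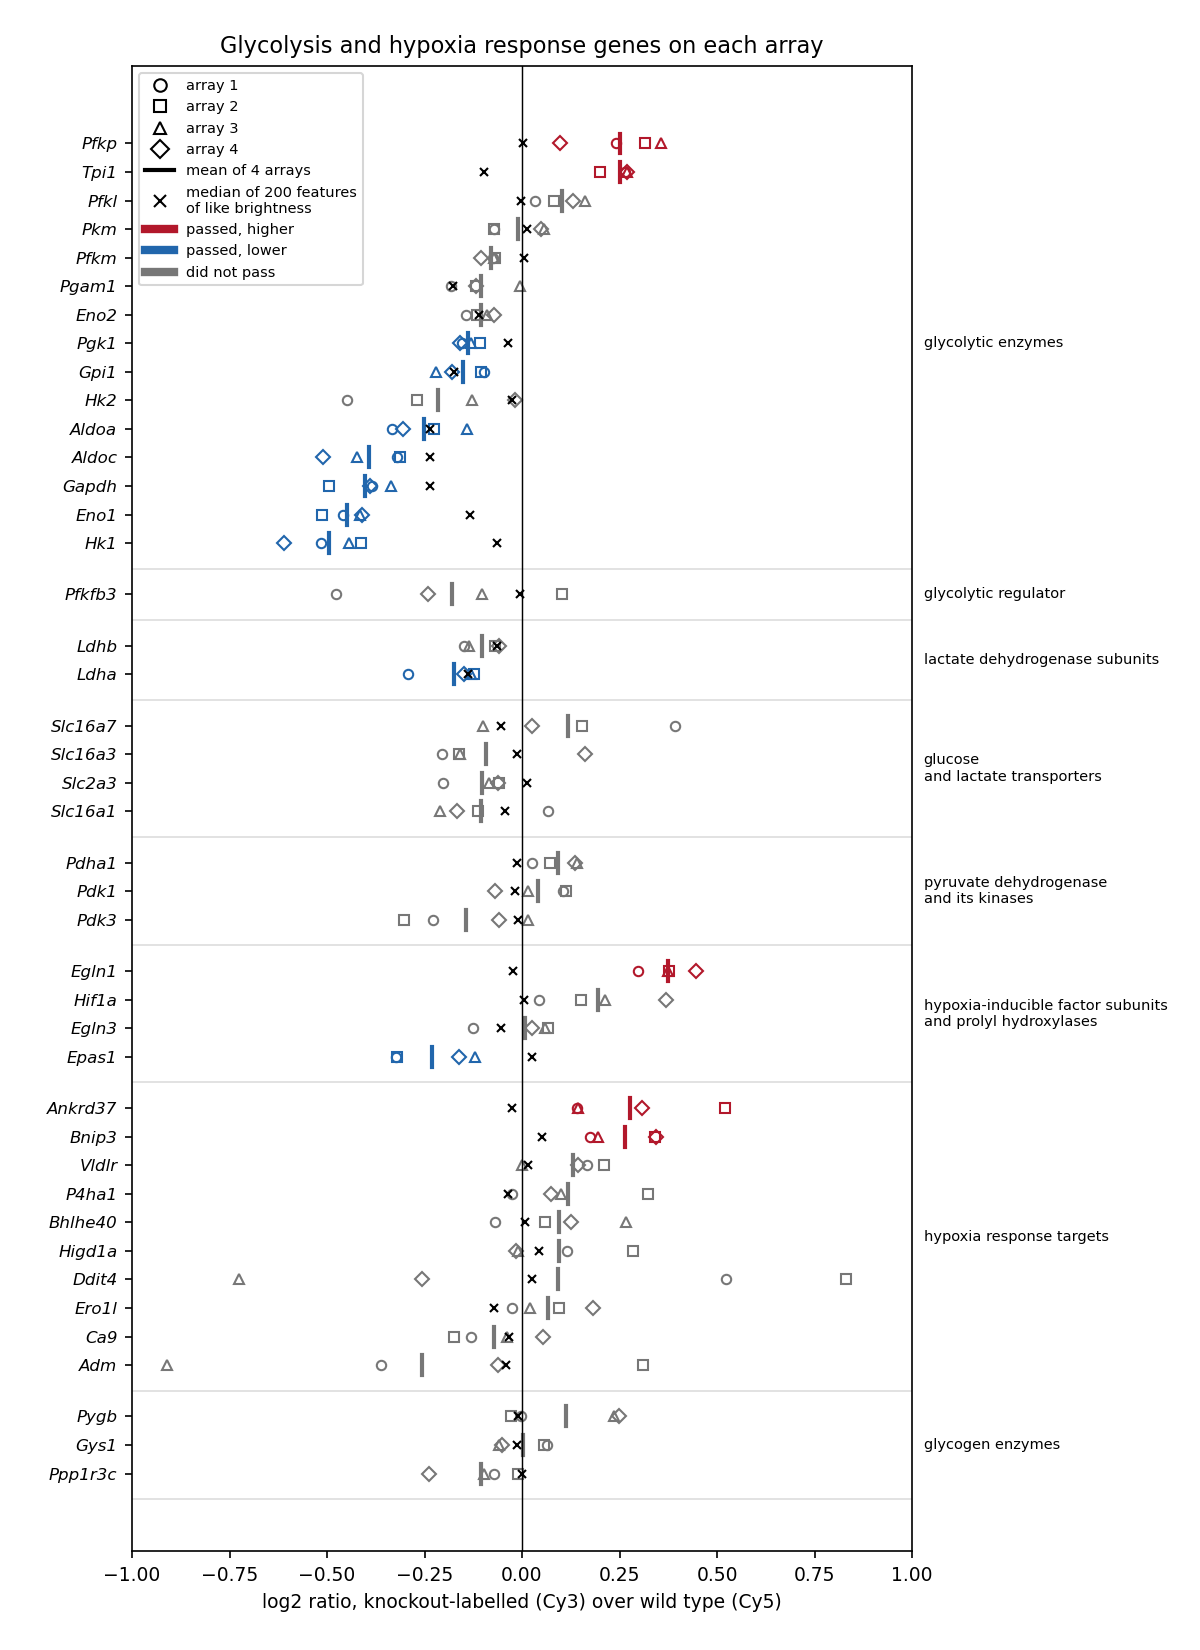
Log2 ratio of each gene, knockout-labelled (Cy3) over wild type (Cy5), on the 4 arrays (open symbols), with the mean (bar), the median of the 200 other features of like brightness (cross) and colour for an adjusted p under 0.05; rows are grouped by role. The bars of Hk1 and Eno1 lie well to the left of their crosses, those of Aldoa and Gpi1 lie beside theirs, and Ddit4 and Adm spread widely over the arrays.

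The control region was read for genes of both directions, because many genes of the oxygen response are bound by hypoxia-inducible factors at a short core sequence. The cores ACGTG and GCGTG were searched on both strands in the 300 bases from 250 before to 50 after the start of each gene, in the RefSeq promoter table of build GRCm38.p6, and overlapping matches were each counted. Of the 42 genes, 38 had such a window, and 30 of the 38 (78.9%) held at least 1 core, beside 43.8% of 27025 genes with 1 window taken for each. The windows of the 38 genes also had a higher median GC content, 64.8% against 52.7%, and the part of base composition in this difference was not tested. By outcome, a core was present for 4 of the 5 higher genes, 5 of the 8 lower genes with a window and 21 of the 25 others. These counts depend on the window read, since 10 of the 38 genes had several and only the first listed was used. The lower genes Hk1, Aldoa, Aldoc, Eno1 and Ldha were among the 10, whereas each of the 5 higher genes had 1 window. Whether the other windows hold cores was not tested. The window of Egln1 (chr8:124949205-124949504, minus strand) holds 2 cores, that of Bnip3 (chr7:138909457-138909756, minus strand) holds 5 and that of Ankrd37 (chr8:45999801-46000100, minus strand) holds 4. Among glycolytic enzymes, Gapdh (chr6:125165724-125166023, minus strand) has 3, Pgk1 (chrX:106186850-106187149, plus strand) has 2 and Tpi1 (chr6:124814109-124814408, minus strand) has 0. A match is a run of letters and no measured binding site. The 6 windows are shown 5′ to 3′ on the gene's strand because they set higher genes beside lower ones, with cores in capitals; adjoining or overlapping cores run together.
Egln1: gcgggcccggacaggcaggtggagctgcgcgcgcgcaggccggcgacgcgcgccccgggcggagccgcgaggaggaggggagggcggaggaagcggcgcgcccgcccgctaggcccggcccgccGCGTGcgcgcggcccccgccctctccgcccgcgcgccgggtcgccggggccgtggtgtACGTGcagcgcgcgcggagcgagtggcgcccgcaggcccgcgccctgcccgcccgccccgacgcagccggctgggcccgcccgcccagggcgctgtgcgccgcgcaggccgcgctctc
Bnip3: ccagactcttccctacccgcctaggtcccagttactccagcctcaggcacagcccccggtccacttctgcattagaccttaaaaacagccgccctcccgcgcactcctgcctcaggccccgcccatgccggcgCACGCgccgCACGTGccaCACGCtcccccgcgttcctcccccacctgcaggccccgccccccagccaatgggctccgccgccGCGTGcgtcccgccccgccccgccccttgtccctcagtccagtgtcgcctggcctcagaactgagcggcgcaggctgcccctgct
Ankrd37: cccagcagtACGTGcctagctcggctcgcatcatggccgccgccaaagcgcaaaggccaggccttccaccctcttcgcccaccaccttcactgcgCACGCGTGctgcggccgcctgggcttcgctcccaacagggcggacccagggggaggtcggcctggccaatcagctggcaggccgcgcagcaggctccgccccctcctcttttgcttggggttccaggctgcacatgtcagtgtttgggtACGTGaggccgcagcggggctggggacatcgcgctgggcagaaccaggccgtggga
Gapdh: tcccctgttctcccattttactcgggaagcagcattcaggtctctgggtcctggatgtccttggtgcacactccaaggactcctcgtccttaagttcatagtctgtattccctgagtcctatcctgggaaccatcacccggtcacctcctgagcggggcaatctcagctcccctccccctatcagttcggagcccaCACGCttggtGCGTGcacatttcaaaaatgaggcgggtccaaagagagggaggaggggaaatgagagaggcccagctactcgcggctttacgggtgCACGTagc
Pgk1: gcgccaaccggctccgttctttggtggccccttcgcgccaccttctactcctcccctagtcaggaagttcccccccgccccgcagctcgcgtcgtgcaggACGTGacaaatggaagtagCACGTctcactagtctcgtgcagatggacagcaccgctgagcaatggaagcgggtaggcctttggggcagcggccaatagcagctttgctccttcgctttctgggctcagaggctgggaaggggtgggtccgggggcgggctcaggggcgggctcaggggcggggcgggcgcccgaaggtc
Tpi1: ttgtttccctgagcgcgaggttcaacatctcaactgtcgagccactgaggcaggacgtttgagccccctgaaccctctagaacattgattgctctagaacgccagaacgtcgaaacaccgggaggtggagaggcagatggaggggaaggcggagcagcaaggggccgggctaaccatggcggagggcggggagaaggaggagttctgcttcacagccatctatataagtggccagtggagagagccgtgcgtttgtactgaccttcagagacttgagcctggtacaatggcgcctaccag

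The 15 glycolytic enzymes carried most of the lower calls, 7 lower and 2 higher, and their median was -0.14. Their median on single arrays was -0.15, -0.12, -0.13 and -0.12, and 14 of the 15 had the same sign on all 4 arrays. Their probes are among the brightest on the array, at a median brightness percentile of 98.6. At that brightness most other features also read below 0. In the brightest 2% (492 features) the median was -0.14, and 44.1% passed as lower and 2.85% as higher, whereas in the brightest 10% (2457 features) 18.0% were lower and 16.4% higher. Each gene was therefore also set against the median of the 200 other features nearest in brightness. The enzymes' median difference from that value was -0.02, with 6 above it and 9 below. The 11 genes that fall in the brightest 2% were lower in 7 cases (Hk1, Gpi1, Aldoa, Aldoc, Gapdh, Eno1 and Ldha) and higher in 1 (Tpi1), and Pgam1, Eno2 and Ldhb did not pass.

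**Figure D2:**
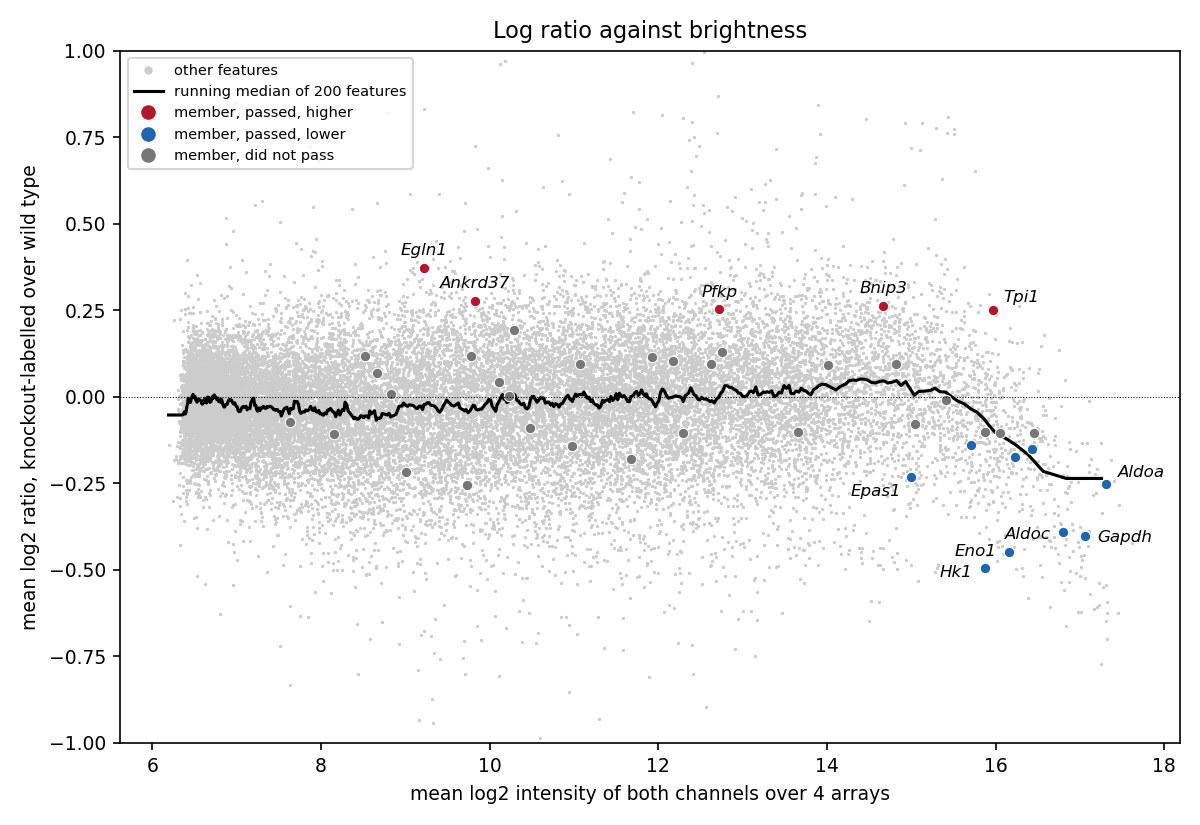
Mean of the log2 ratios, knockout-labelled over wild type, against mean log2 intensity of both channels, for all tested features (grey) and the 42 genes (coloured by call); the line is the running median of 200 features, and 18 of the 24523 other features lie beyond the vertical axis. The line drops below 0 at the bright end, where Hk1, Eno1, Aldoc and Gapdh lie under it, Aldoa lies close to it and Tpi1 lies above it.

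Hk1 encodes the hexokinase that traps glucose in the cell in most of the brain. It read -0.52, -0.41, -0.44 and -0.61 on arrays 1 to 4, a mean of -0.50 ± 0.09 (SD, n = 4) with an adjusted p of 0.00219. All 4 arrays were lower than the -0.06 of features of like brightness. A second, much dimmer Hk1 probe did not show the difference, at 0.10 ± 0.10.

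Eno1, which encodes the widely expressed enolase, read -0.46, -0.51, -0.42 and -0.41, a mean of -0.45 ± 0.05 with an adjusted p of 0.00198. Features of like brightness had a median of -0.13, so all 4 arrays lay below it. With the median of like brightness subtracted on each array before the fit, both genes still passed: Eno1 was -0.32 with an adjusted p of 0.00608, and Hk1 was -0.43 with an adjusted p of 0.00437. Eno2, the neuronal enolase, did not pass, at -0.11 ± 0.03, the same value as features of like brightness.

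Gapdh, the enzyme that oxidises glyceraldehyde 3-phosphate and a common reference gene, read -0.38, -0.50, -0.34 and -0.39, a mean of -0.40 ± 0.07 with an adjusted p of 0.0029. Aldoc, the aldolase of brain and a marker of astrocytes, read -0.32, -0.31, -0.42 and -0.51, a mean of -0.39 ± 0.09 with an adjusted p of 0.00424. Both lay below the median of like brightness, -0.24 in each case, on all 4 arrays. After the median of -0.24 was subtracted, Gapdh stayed just past the threshold at -0.17 with an adjusted p of 0.0457. Aldoc stayed just short of it at -0.16 with an adjusted p of 0.0513. Neither passed with the log ratios of the scanner software, at -0.17 for Gapdh and -0.20 for Aldoc. The 7 Gapdh probes did not give 1 value. From the brightest to the dimmest they read -0.40, -0.16, -0.25, -0.08, 0.16, 0.20 and 0.22, and their mean of -0.04 did not pass. In the limma fit over all 30259 kept probes, the probe at 0.22 passed as higher, with an adjusted p of 0.0276. Those at -0.40 and -0.25 passed as lower in that fit, and the others did not pass.

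Aldoa, the aldolase of muscle and most other tissues, read -0.33, -0.22, -0.14 and -0.31, a mean of -0.25 ± 0.09 with an adjusted p of 0.0139. Gpi1, the glucose-6-phosphate isomerase, read -0.10, -0.11, -0.22 and -0.18, a mean of -0.15 ± 0.06 with an adjusted p of 0.0466. Their values were close to those of like brightness: -0.24 was the median around Aldoa and -0.17 the median around Gpi1. With these medians subtracted, Aldoa was -0.02 and Gpi1 was 0.02, and neither passed. Gpi1's other 2 probes read -0.20 and -0.17, also at high brightness. Its call ended when any 1 of the 4 replicates was left out, and that of Aldoa ended without replicate 1, at -0.22.

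Pgk1, which makes the first ATP of the pathway, read -0.15, -0.11, -0.13 and -0.16, a mean of -0.14 ± 0.02 with an adjusted p of 0.0464. The 4 arrays lay close together, and like features had a median of -0.03. This gene did not pass when any 1 of the 4 replicates was left out, and it turned to 0.06 with the scanner software's log ratios.

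Tpi1, the triose phosphate isomerase, went the other way at high brightness. It read 0.26, 0.20, 0.27 and 0.27, a mean of 0.25 ± 0.03 with an adjusted p of 0.00904, where like features had a median of -0.10. Its second probe read 0.35 ± 0.08, so both probes were above 0. Pfkp, the platelet type of phosphofructokinase and 1 of 3 subunits of that enzyme, read 0.24, 0.31, 0.36 and 0.10, a mean of 0.25 ± 0.11 with an adjusted p of 0.0189. A dimmer Pfkp probe was at -0.01 ± 0.06, and the gene did not pass without replicate 1, 2 or 3. Both directions depend on the correction for brightness within an array: with each array only centred on its median, Tpi1 turned to -0.41 and Pfkp to -0.11.

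The other 2 phosphofructokinase subunits did not pass, with 0.10 ± 0.06 for the liver type Pfkl and -0.08 ± 0.02 for the muscle type Pfkm. Hk2, the hexokinase that rises with hypoxia in many cells, read -0.22 ± 0.19 with an adjusted p of 0.0701, and the arrays ran from -0.45 to -0.02. Pgam1, the phosphoglycerate mutase, was -0.11 ± 0.07, and Pkm, the pyruvate kinase of brain, was -0.01 ± 0.07. Thus 6 of the 15 enzymes did not pass, from the first step of the pathway to the last. Pfkfb3, which makes the fructose 2,6-bisphosphate that activates phosphofructokinase, did not pass either, at -0.18 ± 0.24, with arrays from -0.48 to 0.10.

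Of the lactate dehydrogenase subunits, Ldha favours making lactate and Ldhb favours its use. Ldha read -0.29, -0.12, -0.13 and -0.15, a mean of -0.17 ± 0.08 with an adjusted p of 0.0379, beside -0.14 for features of like brightness. Array 1 was the lowest and the other 3 lay together. The call rested on the probe: both dimmer Ldha probes were above 0, at 0.19 ± 0.08 and 0.26 ± 0.04, each past the threshold as higher in the fit over all 30259 kept probes. The mean of the 3 probes was 0.09. Leaving out any 1 of the 4 replicates also ended the call of the brightest probe. Ldhb was -0.10 ± 0.05, with an adjusted p of 0.118.

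**Figure D3:**
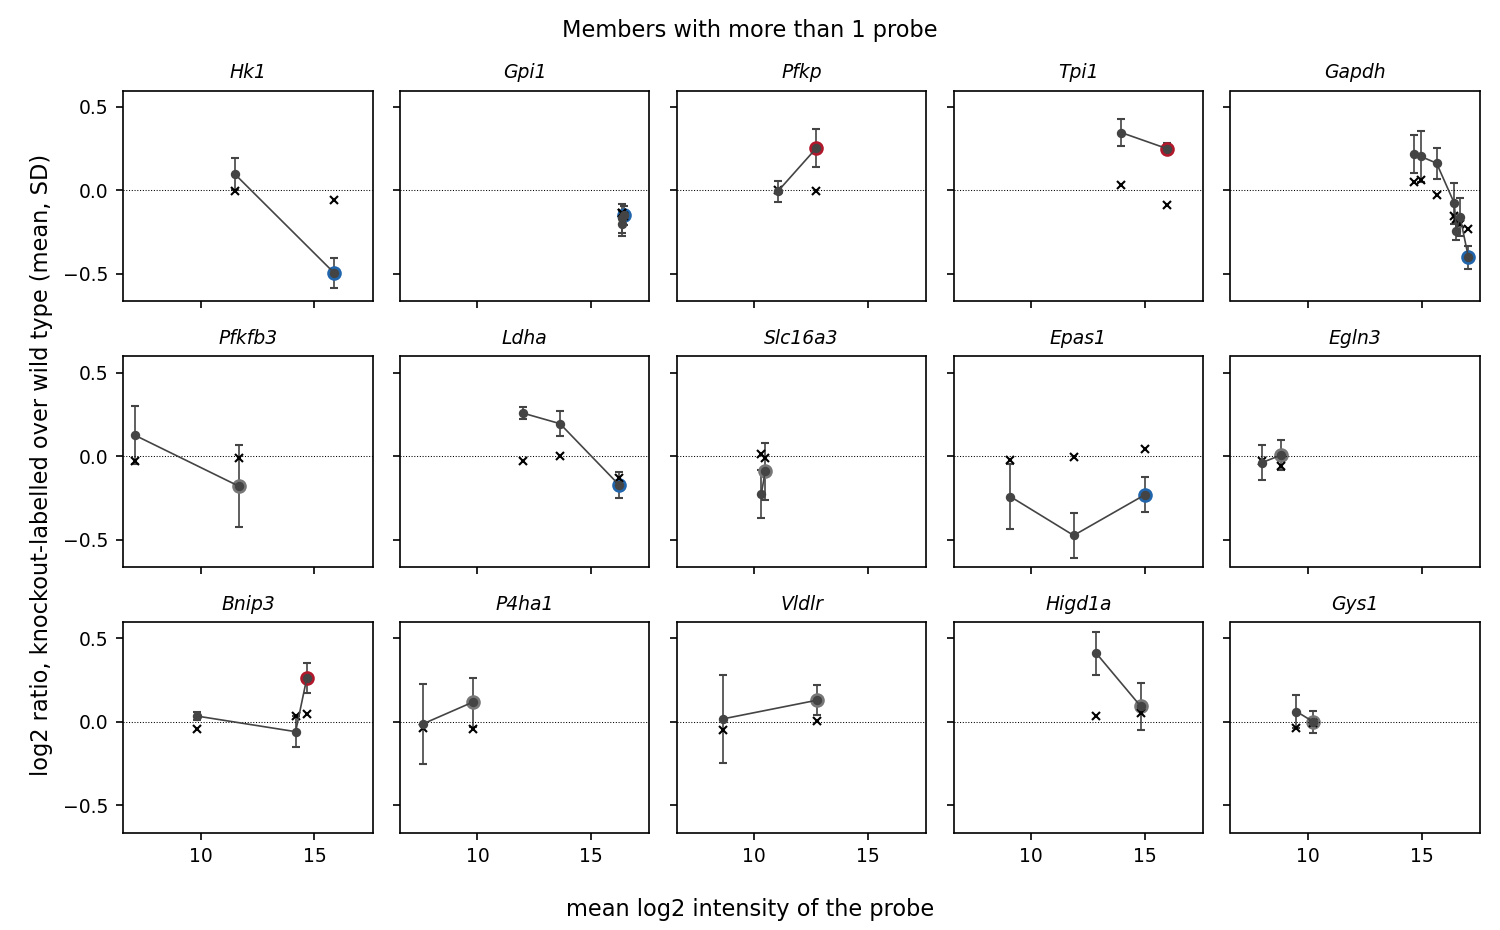
Mean log2 ratio (vertical, with bars for the SD over 4 arrays) against mean log2 intensity for every kept probe of the 15 genes with more than 1 probe. The larger point, coloured by the gene's call, is the brightest probe, which stands for the gene. Crosses are the medians of features of like brightness. Probes of Gapdh and Ldha cross 0 from dim to bright, whereas all probes of Tpi1 lie above 0 and all probes of Epas1 below it.

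Over the 42 genes, 27 had 1 kept probe and 15 had 39 probes between them. Among the 14 genes that passed, 8 had more than 1 probe, and in 3 of the 8 (Gpi1, Tpi1 and Epas1) every other probe had the sign of the brightest. Probes of a gene can read different transcript ends, and the part of that in the differences was not tested.

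Transport and the entry of pyruvate into mitochondria showed no call among the listed genes. The 4 transporters were Slc2a3 (GLUT3, the neuronal glucose transporter) at -0.10 ± 0.07, and the monocarboxylate transporters Slc16a1 at -0.11 ± 0.12, Slc16a3 at -0.09 ± 0.17 and Slc16a7 at 0.12 ± 0.21. The values of Slc16a7, the neuronal lactate transporter, ran from -0.10 to 0.39 over the arrays. A second Slc16a3 probe was at -0.23 ± 0.14. For the pyruvate dehydrogenase group, the subunit Pdha1 was 0.09 ± 0.06, and the kinases that switch the complex off, Pdk1 and Pdk3, were 0.04 ± 0.09 and -0.14 ± 0.15.

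Among the 4 genes of the oxygen-sensing system, 1 was higher and 1 was lower, beside 8.63% higher and 12.7% lower among all features. Egln1 encodes PHD2, the main prolyl hydroxylase that marks hypoxia-inducible factor alpha subunits for degradation, and is itself a target of the factor. It read 0.30, 0.38, 0.37 and 0.45, a mean of 0.37 ± 0.06 with an adjusted p of 0.0034. All 4 arrays were far above the -0.02 of features of like brightness, and the fold of 1.30 was the largest among the higher genes. Egln1 passed as higher under every one of the 16 alternative settings, though several of these leave the ratio unchanged or repeat another setting. Egln3, another prolyl hydroxylase induced by hypoxia, was 0.01 ± 0.09.

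Epas1, the hypoxia-inducible factor alpha subunit of endothelium and astrocytes among other cells, read -0.32, -0.32, -0.12 and -0.16, a mean of -0.23 ± 0.10 with an adjusted p of 0.0218. All 4 arrays were below 0, arrays 1 and 2 the most, and like features had a median of 0.03. Its other probes were also lower, at -0.47 ± 0.13 and -0.24 ± 0.20. The call ended without replicate 1 or without replicate 2, with adjusted p values of 0.07995 and 0.08435. Hif1a, the other alpha subunit listed, read 0.04, 0.15, 0.21 and 0.37 and did not pass, at 0.19 ± 0.14 with an adjusted p of 0.0535. It crossed the threshold in 3 of the alternative settings, with no background correction, with a loess span of 0.1 and with a robust intensity trend, at adjusted p values of 0.04999, 0.04793 and 0.04501. Whether Hif1a and Epas1 differ from each other was not tested.

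The 10 hypoxia targets had a median of 0.09, with 8 above 0, 2 passing as higher and 0 as lower. Among all features 8.63% passed as higher and 12.7% as lower, and 10884 of 24565 were above 0. Whether counts from only 10 genes differ from these shares was not tested. The median of the 10 targets was 0.05, 0.30, 0.01 and 0.10 on arrays 1 to 4, so it stood highest on array 2. It turned to -0.22 with each array only centred on its median. Bnip3, a mitochondrial protein that promotes mitophagy and cell death in hypoxia, read 0.18, 0.34, 0.19 and 0.34, a mean of 0.26 ± 0.09 with an adjusted p of 0.0129. Its call was made by the brightest probe, since the others were at -0.06 ± 0.09 and 0.04 ± 0.02 and the mean of the 3 probes, 0.08, did not pass. Ankrd37, an ankyrin-repeat gene and a direct target of hypoxia-inducible factor 1, read 0.14, 0.52, 0.14 and 0.31, a mean of 0.28 ± 0.18 with an adjusted p of 0.0312. Array 2 was the highest, and the call ended without replicate 2, at 0.20 with an adjusted p of 0.08245. It ended also without replicate 1 or 4. Bnip3 kept its call without replicate 1, 3 or 4 and missed the threshold without replicate 2, at an adjusted p of 0.05604.

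The other 8 targets did not pass, and 2 of them varied more over the arrays than nearly all features. Ddit4, an inhibitor of mTOR signalling induced by stress, read 0.52, 0.83, -0.73 and -0.26, a mean of 0.09 ± 0.71. Adm, the vasodilator peptide adrenomedullin, read -0.36, 0.31, -0.91 and -0.06, a mean of -0.26 ± 0.52. Their SDs stood at the 99.8 and 99.4 percentiles of all features, so neither gene has a common direction in these samples. The striatal marker list also moved between arrays, with medians of -0.41, -0.56, 0.23 and -0.04, and the erythrocyte genes with medians of -0.33, -0.64, -0.09 and 0.17. The part of either in the spread of Ddit4 and Adm was not tested.

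The remaining 6 targets lay between -0.07 and 0.13. Vldlr, a lipoprotein receptor, was 0.13 ± 0.09, P4ha1, a collagen prolyl hydroxylase, was 0.12 ± 0.15, and the transcriptional repressor Bhlhe40 was 0.10 ± 0.14. Higd1a, a mitochondrial protein induced by hypoxia, was 0.09 ± 0.14, and its dimmer probe stood higher at 0.41 ± 0.13. Ero1l (now Ero1a), an oxidase of the endoplasmic reticulum, was 0.07 ± 0.09, and Ca9 (now Car9), a carbonic anhydrase, was -0.07 ± 0.10. Ero1l lies on chromosome 14, as Ndrg2 does, where 31.0% of 596 features passed and 14.3% passed as higher.

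The 3 glycogen genes did not pass. Pygb, the brain glycogen phosphorylase that releases glucose from glycogen, was 0.11 ± 0.15, with arrays 1 and 2 at or just below 0 and arrays 3 and 4 at 0.24 and 0.25. Gys1, the glycogen synthase of brain and muscle, was 0.00 ± 0.07, and Ppp1r3c, which targets protein phosphatase 1 to glycogen, was -0.10 ± 0.10.

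Related genes outside the 42 were also counted, from lists drawn up by function. Of 22 tested genes in the list of other glycolysis genes, 0 were higher and 3 lower, and the median was -0.03. The lower share of 13.6% was near the 12.7% of all features, so the count is no result about the list. The lower genes were Pfkfb4, a relative of Pfkfb3, at -0.34 ± 0.11 with an adjusted p of 0.00819, Tigar, which lowers fructose 2,6-bisphosphate, at -0.25 ± 0.06, and Hk3, a hexokinase of myeloid cells, at -0.24 ± 0.16. These 3 genes had none of the extreme brightness of the enzymes above, with medians of like brightness between -0.06 and 0.02. Of 14 genes of pyruvate entry, 2 were higher (14.3%) and 4 lower (28.6%), beside 8.63% and 12.7% of all features. Pdk2, a kinase of the complex, was at -0.19 ± 0.08, whereas Mpc2, a subunit of the mitochondrial pyruvate carrier, was at 0.16 ± 0.02 and the dehydrogenase subunit Dld at 0.17 ± 0.06. These 6 calls became 0 without replicate 1 or 4 and 1 without replicate 2 or 3.

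In the list of other hypoxia response genes, 1 of 37 tested was higher (2.70%) and 6 were lower (16.2%), with a median of -0.01, beside 8.63% higher and 12.7% lower among all features. The 3 with the smallest p were lower: the histone demethylase Kdm4b at -0.22 ± 0.04, the vascular growth factor Vegfa at -0.26 ± 0.12, and Cited2, a competitor of hypoxia-inducible factors for a shared coactivator, at -0.24 ± 0.11. Lower calls also outnumbered higher ones among all features. The 7 calls of this list became 2, 0, 3 and 4 when replicate 1, 2, 3 or 4 was left out.

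Glycogen genes outside the 42 held 7 lower and 1 higher of 21, with a median of -0.10. Ppp1r3b, a glycogen-targeting subunit of protein phosphatase 1, was lower at -0.45 ± 0.07 with an adjusted p of 0.00222, and the kinase gene Gsk3a, whose product inhibits glycogen synthase, was lower at -0.27 ± 0.04 with an adjusted p of 0.00754. The higher gene was Ppp1r3e, another targeting subunit, at 0.52 ± 0.13 with an adjusted p of 0.00287, and it lies on chromosome 14 like Ndrg2. Its probe was dim, at a mean log2 intensity of 6.87, where Ca9, the dimmest of the 42 genes, stood at 7.64. A gene among the lower ones was as dim, at 6.84. The 7 lower genes were 33.3% of the list and the 1 higher gene 4.76%, beside 12.7% lower and 8.63% higher among all features.

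Markers of cell types were read beside these genes, since Aldoc is a marker of astrocytes and Hk3 is a hexokinase of myeloid cells. Astrocytes are also the main site of glycogen storage in brain, though not every listed glycogen gene is particular to them. Of 12 astrocyte markers, 3 were lower (25%) and 0 higher, with a median of -0.10. Among all features 12.7% were lower and 8.63% higher. The 3 lower markers were the glutamate transporter Slc1a2 at -0.30 ± 0.09, the water channel Aqp4 at -0.41 ± 0.17 and glutamine synthetase Glul at -0.25 ± 0.06. Signals of the 12 markers were summed from the scanner software's processed intensities, not from the values behind the log2 ratios above. The sums ran from 119490 to 127563 in the knockout-labelled samples and from 128065 to 141972 in the wild type, with no overlap. Such a sum is weighted to the brightest markers, and its range leaves out the pairing of samples on an array. Sums also separated for the other glycogen genes, at 60350 to 68594 against 69163 to 74714, and for the microglia markers given next. They overlapped in every other list read here. How often sums of gene sets outside these lists separate in this way was not tested. Of 12 microglia markers, 6 were lower (50%) and 0 higher, with a median of -0.17 and summed signals of 89316 to 101821 against 103551 to 118133. The lysosomal protease Ctss was at -0.45 ± 0.11, the fractalkine receptor Cx3cr1 at -0.29 ± 0.06 and the complement gene C1qc at -0.22 ± 0.06. Of 8 tested neutrophil and monocyte markers, 2 (25%) were lower, Itgam at -0.24 ± 0.09 and Csf3r at -0.25 ± 0.11, and 0 were higher. Summed signals of the 8 markers were 61716 to 69182 against 66906 to 73788, which overlap.

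Markers of other cells were more even, where 12.7% of all features were lower and 8.63% higher. Of 12 neuron markers, 1 was higher (Nefm, 0.26 ± 0.04) and 1 lower (Gad2, -0.24 ± 0.17), with a median of 0.04 and overlapping sums of 199752 to 229588 and 190059 to 214358. The 12 endothelial markers held 1 higher and 1 lower gene, with a median of -0.07. The 12 oligodendrocyte markers held 2 higher and 1 lower, and their median ran from -0.26 on array 2 to 0.34 on array 4. The part of cell composition in the lower signals of Hk1, Eno1, Gapdh, Aldoc or the glycogen genes was not tested.

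How far each call depended on the processing is shown for the 14 genes that passed. Of these, 3 (Hk1, Eno1 and Egln1) kept both call and direction in all 16 alternative settings. The 16 are not independent checks. Aquantile, the 2 filters, the robust trend and the unpaired fit left each ratio unchanged. The scanner's ratios and the value table gave the same values. Eno1 and Egln1 have 1 probe each, so averaging probes could not move their ratios, and the dimmer Hk1 probe read 0.10. Tpi1 kept its call in all 16 and turned its direction in 1, the median centring. The median of all features moved by more than 0.1 under that setting only, to -0.18, and the median of the brightest 10% went to -0.55 from -0.0046, so that 32 of the 42 genes then passed as lower and 1, Egln1, as higher. With the median of like brightness subtracted, the 4 lower genes were Hk1, Eno1, Gapdh and Epas1, and all 5 higher genes kept their calls.

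**Figure D4:**
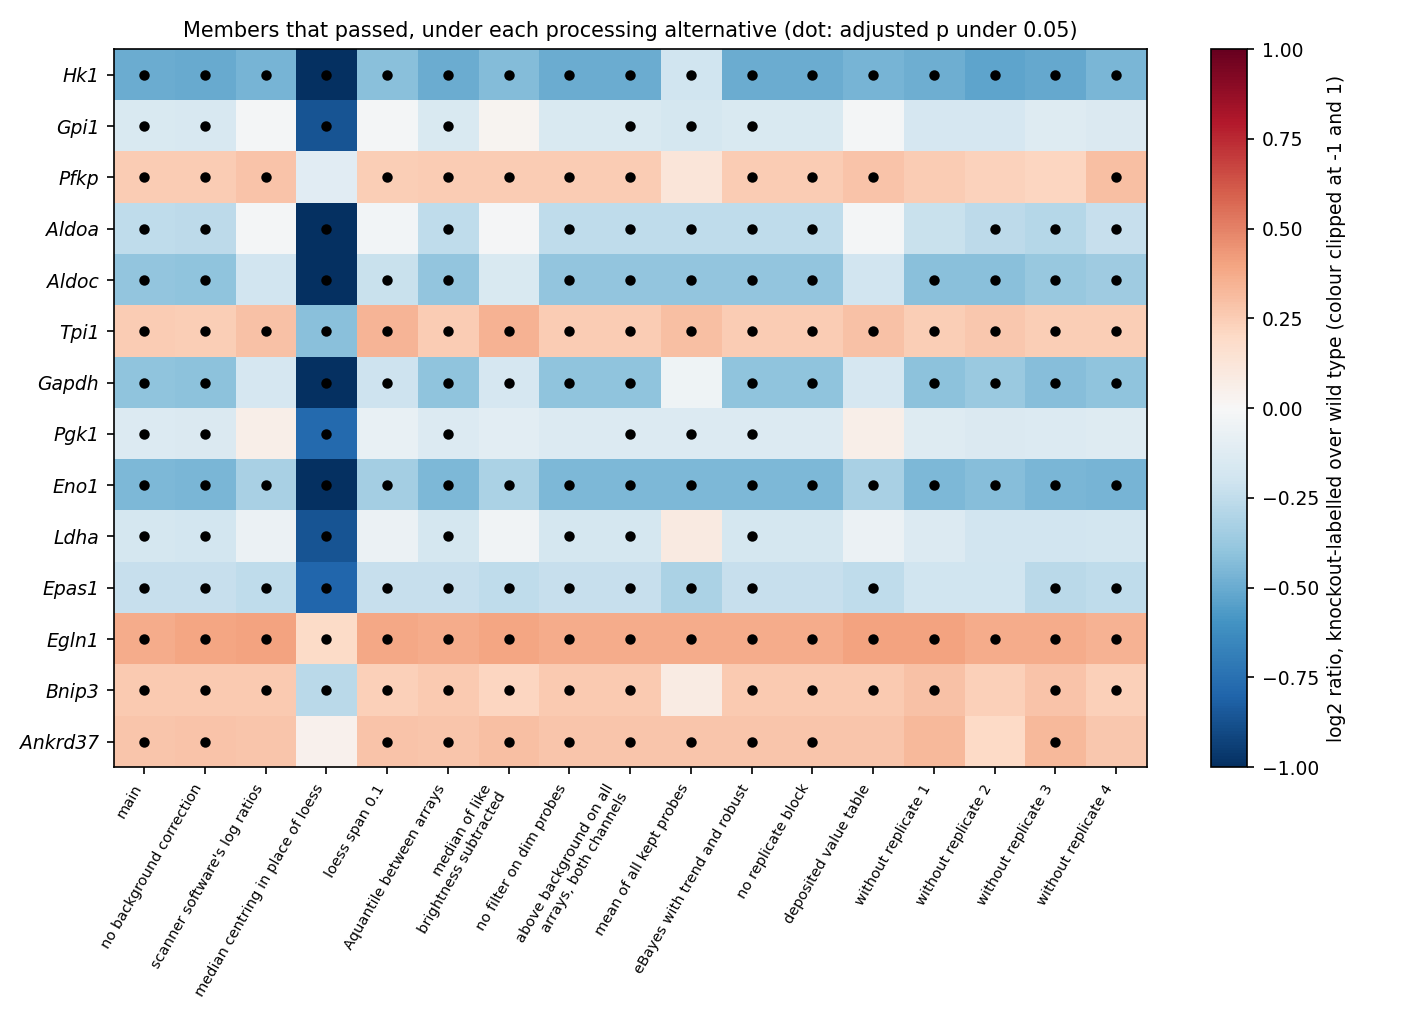
Log2 ratio (colour, knockout-labelled over wild type) for the 14 genes that passed, in the analysis as reported and in 16 alternative settings (columns); a dot marks an adjusted p under 0.05. Hk1, Eno1 and Egln1 have a dot and 1 colour throughout, whereas Gpi1, Pgk1 and Ldha each lack the dot in 10 columns.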

How the data were processed

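Total RNA from 4 pairs of cortex samples was labelled (200 ng each) and hybridised to 2-colour Agilent arrays of 43020 non-control spots. The scanner files deposited by the authors hold median spot and background intensity and processed intensity, background-subtracted and dye-normalized, from Agilent Feature Extraction (11.0.1.1 per the file headers, 10.7.3.1 per the submitters' processing notes). They also hold the log10 ratio of red over green and flags for outlier, saturated and well above background spots, per the file headers. The authors' deposited value table holds log2 ratios of wild type over knockout, the opposite direction to that used here: for all 39030 probes with 1 spot the deposited value was within 0.001 of the log2 ratio of processed Cy5 over Cy3 signal, and its column medians were -0.05, -0.06, -0.04 and -0.03. How the table was scaled further is not stated.

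Median signals were used because the files give no mean signals. In limma 3.58.1 (R 4.3.3), background was corrected with normexp (offset 50) and each array normalized by loess with controls at weight 0. Outlier spots (139 to 186 per array) and control spots were left out. Probes well above background on at least 3 of 4 arrays in either channel were kept, 30259 of 39429 probes, and the brightest kept probe stands for a gene. Gene symbols came from RefSeq accessions (69.6% of probes matched). Ratios on the log2 scale were tested against 0 by lmFit and eBayes, with Benjamini-Hochberg adjustment over 24565 features, so that each array pairs its 2 samples. The number of arrays limits the precision. All 4 arrays lie on 1 slide and each holds both genotypes.

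The 42 genes and the other lists were chosen with earlier results of these data known. Every listed gene is named, with each array's value where it passed or where an array reached 0.5, and up to 3 genes with the smallest p from each other list. The alternatives were other background, loess, filter, probe, spread and pairing settings, the scanner's ratios, the value table and leaving out each replicate.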

Additional observations from a re-analysis of the deposited data

Results flagged for a closer look

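Among the 42 genes, 4 had 1 array standing apart from the other 3, by a gap that took more of the whole range than Dixon's 95% critical value for 4 arrays allows. Chance flags about 1 in 20, or 2.1 of 42. Tpi1 had the largest ratio of gap to range, 0.940, with array 2 at 0.20 and the others at a mean of 0.27, so all 4 arrays stayed above 0. For Slc16a3 the ratio was 0.875, with array 4 at 0.16 and the others at a mean of -0.18, and this array alone had the opposite sign. Pfkm had a ratio of 0.849, with array 4 at -0.10 and the others at -0.07. Ldha had 0.843, with array 1 at -0.29 and the others at a mean of -0.13, and its call ended when array 1 was left out, as it did without any other array.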

How the results depend on the processing

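With each array centred on its median in place of loess, 1 of the 42 genes was higher and 32 lower, 6329 features were higher and 13177 lower, and the genes' median was -0.39. The related lists then held 17 (other glycolysis), 13 (pyruvate entry), 28 (other hypoxia) and 19 (other glycogen) calls, beside 3, 6, 7 and 8. Signs turned there for Pfkl (-0.23), Pfkp (-0.11), Tpi1 (-0.41), Pdk1 (-0.21), Pdha1 (-0.26), Hif1a (-0.064), Egln3 (-0.13), Bnip3 (-0.27), Ca9 (0.017), Ddit4 (-0.37), P4ha1 (-0.11), Ero1l (-0.050), Bhlhe40 (-0.20), Vldlr (-0.23), Higd1a (-0.45), Pygb (-0.21) and Gys1 (-0.25). By its construction this setting leaves the slope of the ratio on brightness in place.

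The scanner software's log ratios and the deposited value table gave the same values: 3 genes lower, 1751 features lower, a median of 0.031, 3 calls each for pyruvate entry and other hypoxia genes, and turned signs for Pgk1 (0.061), Pgam1 (0.026), Eno2 (0.036) and Pkm (0.020). A loess span of 0.1 left 5 lower and a median of -0.00013, with Pgam1 at 0.031 and Pkm at 0.022. Subtracting the median of like brightness left 4 lower and a median of 0.0097, with Gpi1 at 0.023, Pgam1 at 0.072 and Eno2 at 0.0037. The mean of all probes gave a median of -0.021, 4 other hypoxia calls, Ldha at 0.093 and Egln3 at -0.016. With no replicate block (channels fitted as separate samples) 5 genes were lower, 1261 features higher and 1561 lower, with 0, 3 and 5 calls for pyruvate entry, other hypoxia and other glycogen genes. The cause of these changes was not tested.

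With 1 replicate left out, 2 to 4 genes were higher and 4 to 7 lower, 808 to 1264 features higher and 1219 to 1918 lower, and calls were 0 to 1 for pyruvate entry, 0 to 4 for other hypoxia and 5 to 6 for other glycogen genes. The lowest counts of lower genes (4) and higher genes (2) came without replicate 1 and without replicate 2. Signs turned in at least 1 such fit for Pkm (-0.031 to 0.011), Egln3 (-0.013 to 0.051), Ddit4 (-0.15 to 0.37) and Gys1 (-0.018 to 0.022), all short of the threshold. Leaving out background correction turned no sign among the 42 genes. Aquantile, the 2 filters and the robust trend left the ratios of the 42 genes unchanged, so no sign could turn there. All 42 were well above background in both channels, so signal over background limits none of them; spread over 4 arrays and 1 dye orientation do.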
